A study of Mus musculus with 36 samples.

Results

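Complement component C1q and the anaphylatoxin receptors of macrophages were followed in mouse livers that lacked or carried dermatopontin (Dpt), with and without injury by carbon tetrachloride (CCl4). The 5 genes described are C1qa, C1qb and C1qc, which encode the chains of C1q, and C3ar1 and C5ar1, which encode the receptors for the complement fragments C3a and C5a. They were chosen by symbol, and every array probe set annotated to that symbol alone was used and averaged. All 5 were measured, out of 23152 genes on the array. Values are log2 signals after robust multi-array averaging (RMA), so a difference of 1 is a doubling.

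Complement is a cascade of serum proteins that marks damaged cells and microbes for removal. Hepatocytes make most of its circulating proteins, whereas C1q, the molecule that recognises targets and starts the classical pathway, is made chiefly by tissue macrophages, in the liver including the resident Kupffer cells. The anaphylatoxins C3a and C5a, released when C3 and C5 are cleaved, act on G protein-coupled receptors of myeloid cells, where C5a is a strong attractant for neutrophils and monocytes.

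The study compared Dpt-null mice (KO) with their wild-type littermates (WT). Per the labels, all were female C57BL/6 mice of 10 to 12 weeks, and the tissue was whole liver. The 4 groups were KO given CCl4 (9 libraries), WT given CCl4 (9), KO given olive oil (10) and WT given olive oil (8), where a library is the labelled RNA of 1 liver on 1 array. CCl4, a solvent made toxic by hepatocyte metabolism, was injected under the skin at 0.1 ml/kg, 3 times a week for 8 weeks. Its concentration was 2%, 4%, 5% and 6% in weeks 1 to 4 and 8% in weeks 5 to 8, and livers were taken 24 hours after the last dose. Olive oil served as the control. How the null allele was made is not given in the sources used here, and no label says whether a gene other than Dpt is altered in all groups. In whole-liver RNA, more cells of a type and more RNA per cell cannot be told apart. The p-values measure the spread between these livers.

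Some libraries went against their labels or stood apart, and they were kept in the groups the labels give. Dpt lay at 3.00 to 3.86 in KO CCl4 livers and at 7.48 to 10.12 in WT CCl4 livers other than replicate 1, which had 3.18. In KO oil livers it lay at 3.07 to 3.87 except in replicate 10, which had 7.40, and in WT oil livers at 5.59 to 6.48. Markers of stellate cells and myofibroblasts, which make scar, averaged 8.28 in KO oil replicate 10, against 7.41 to 8.07 in KO CCl4 livers and 5.62 to 6.23 in the other KO oil livers, so its treatment label is in doubt as well. In WT CCl4 replicate 1 they averaged 6.69, between the 7.45 to 8.10 of the other WT CCl4 livers and the 5.73 to 6.17 of WT oil livers. Whether libraries were exchanged was not tested. Results that rest on these 2 libraries are given with and without them. Y-linked genes were expressed in 6 oil libraries labelled female (3 KO, 3 WT). Markers of pancreas, muscle or fat were more than 1 log2 unit above the median array in 7 libraries (1 KO CCl4, 5 WT CCl4, 1 KO oil). Periportal hepatocyte genes were more than 1.5 log2 units below the median in KO CCl4 replicate 5 and WT CCl4 replicate 3. Hepatocyte markers, which check the tissue, averaged 8.25 and 8.53 in these 2 libraries and 10.61 to 11.16 in all others. Fat cell markers averaged 9.28 in KO CCl4 replicate 5, and muscle markers 10.51 in WT CCl4 replicate 3.

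The 3 C1q genes lie side by side on chromosome 4, within 18.7 kb of GRCm38.p6: C1qb at chr4:136880126-136886200, C1qc at chr4:136889801-136892936 and C1qa at chr4:136895916-136898844. C3ar1 lies at chr6:122847140-122856157 and C5ar1 at chr7:16246743-16259540. Because the C1q genes are neighbours whose levels varied together, the RefSeq promoter windows of C1qb and C1qc are shown beside those of the receptor genes, each from 250 bases before to 50 after the start, 5′ to 3′ on the minus strand of GRCm38.p6. Capitals mark matches to the motifs searched on both strands. The C1qb window is chr4:136886151-136886450, that of C1qc chr4:136892865-136893164, that of C3ar1 chr6:122856108-122856407 and that of C5ar1 chr7:16259289-16259588.
C1qb: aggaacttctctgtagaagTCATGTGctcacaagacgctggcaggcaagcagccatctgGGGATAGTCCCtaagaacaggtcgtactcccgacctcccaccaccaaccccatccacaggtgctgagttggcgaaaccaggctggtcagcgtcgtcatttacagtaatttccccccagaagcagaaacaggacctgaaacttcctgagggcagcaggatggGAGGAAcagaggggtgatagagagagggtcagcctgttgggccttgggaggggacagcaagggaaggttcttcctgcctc
C1qc: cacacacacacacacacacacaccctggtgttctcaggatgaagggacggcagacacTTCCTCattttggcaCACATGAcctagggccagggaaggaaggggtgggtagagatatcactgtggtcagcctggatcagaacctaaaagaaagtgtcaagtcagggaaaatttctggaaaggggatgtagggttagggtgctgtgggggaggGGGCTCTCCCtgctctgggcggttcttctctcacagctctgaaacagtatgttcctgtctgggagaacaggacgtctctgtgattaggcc
C3ar1: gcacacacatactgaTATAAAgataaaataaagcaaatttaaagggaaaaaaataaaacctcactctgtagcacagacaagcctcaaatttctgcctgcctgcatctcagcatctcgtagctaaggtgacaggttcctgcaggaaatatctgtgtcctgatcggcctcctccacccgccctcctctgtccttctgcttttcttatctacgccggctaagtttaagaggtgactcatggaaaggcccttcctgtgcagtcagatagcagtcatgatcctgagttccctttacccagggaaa
C5ar1: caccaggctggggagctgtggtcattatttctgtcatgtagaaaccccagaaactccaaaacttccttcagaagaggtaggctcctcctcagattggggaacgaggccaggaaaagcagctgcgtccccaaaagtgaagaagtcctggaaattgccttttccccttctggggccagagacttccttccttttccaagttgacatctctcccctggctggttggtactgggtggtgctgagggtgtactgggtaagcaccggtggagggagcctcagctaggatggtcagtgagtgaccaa

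Both C1q windows held the same 3 motifs. The core recognised by PU.1, the myeloid transcription factor, was searched as GAGGAA and stood in 28.3% of all 32851 promoter windows. It began 30 bases before the start in C1qb and, on the opposite strand, 193 bases before the start in C1qc (read there as TTCCTC). The motif TCATGTG, recognised by factors of the MITF and TFE family, stood in 3.8% of all windows, 231 bases before the start in C1qb and, on the opposite strand, 178 bases before it in C1qc. The NF-kB motif stood in 20.7% of windows. It matched both strands of C1qb at sites that overlap by all but 1 base, and C1qc on the opposite strand. TATAAA, in 13.6% of windows, was found in C3ar1, 235 bases before the start. The other motifs searched were TGCTGAC (MAF factors, 4.7% of windows), CACGTG (MITF and TFE, 7.2%; it shares no site with TCATGTG), the motif of IRF factors (3.4%), TTNNGCAA (C/EBP, 10.8%) and its special case TTGCGCAA (0.2%). These were in none of the windows shown, and the C5ar1 window held no match. A match is a run of letters and was not tested for binding.

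Repeated CCl4 raised the RNA of all 3 C1q chains in KO livers by 2.06-fold to 2.81-fold relative to oil. C1qa, the A chain, had 7.63, 8.65 and 9.51 (lowest, median and highest) in the 9 KO CCl4 livers, against 6.76, 7.18 and 8.98 in the 10 KO oil livers. All 9 KO CCl4 livers were above the mean of the KO oil livers, but the groups overlapped through KO oil replicate 10, the highest oil library for each of the 5 genes. The difference for C1qa was 1.28 ± 0.22 log2 units (SE, limma, adjusted p = 3.34e-05).

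C1qb, the B chain, had 8.62, 9.82 and 10.50 in KO CCl4 livers, against 7.71, 8.07 and 9.96 in KO oil livers. C1qb rose by 1.49 ± 0.21 (limma, adjusted p = 3.85e-06), the highest change of the 3 chains by the mean of their probe sets. C1qc, the C chain, had 6.29, 6.88 and 7.69 in KO CCl4 livers, against 5.32, 5.85 and 6.95 in KO oil livers. It rose by 1.045 ± 0.16 (adjusted p = 9.3e-06). For each chain KO CCl4 replicate 3 was the highest liver of its group and replicate 9 the lowest, so the livers kept much the same place across the 3 genes.

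**Figure D1:**
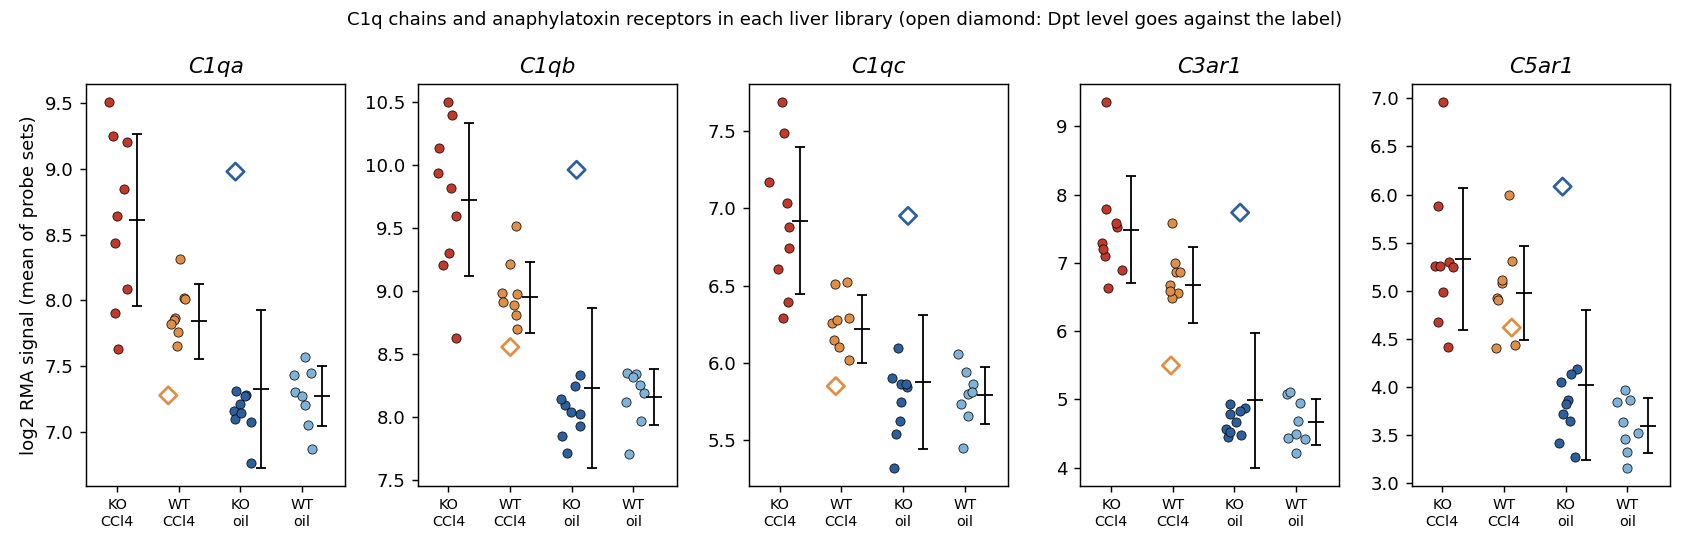
Log2 RMA signal (vertical axis) of each gene in every library, by group, with a black bar for the group mean and its SD. Open diamonds are KO oil replicate 10 and WT CCl4 replicate 1, whose Dpt level goes against the label; for C1qa the diamond of the KO oil group sits at 8.98, among the KO CCl4 livers at 7.63 to 9.51.

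Both receptor genes also rose in KO livers. C3ar1, the C3a receptor, had 6.63, 7.29 and 9.36 in KO CCl4 livers, against 4.45, 4.73 and 7.74 in KO oil livers. Its rise of 2.50 ± 0.32, or 5.67-fold, was the highest of the 5 genes by the mean of their probe sets (limma, adjusted p = 6.54e-07). C5ar1, the main C5a receptor, had 4.41, 5.26 and 6.96 in KO CCl4 livers, against 3.27, 3.84 and 6.08 in KO oil livers, and rose by 1.31 ± 0.27 (adjusted p = 0.000471). The highest CCl4 liver for both receptors was KO CCl4 replicate 5, the library with low hepatocyte genes, where fat cell markers averaged 9.28. Its part in the result was not tested; without it C3ar1 rose by 2.27 and C5ar1 by 1.11.

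All 5 genes passed the test in KO livers, where 23.3% of all genes were called and 13.4% were called higher, and where the median gene changed by -0.04. No member (0 of 5) had groups that did not overlap, against 0.203% of all genes. Without KO oil replicate 10 and WT CCl4 replicate 1, the groups did not overlap for any of the 5 genes, against 5% of all genes. The rises were then 1.47 ± 0.17 for C1qa, 1.685 ± 0.17 for C1qb, 1.16 ± 0.14 for C1qc, 2.81 ± 0.22 for C3ar1 and 1.54 ± 0.225 for C5ar1, and 28.2% of all genes were called.

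In WT livers, CCl4 raised C1qb and both receptor genes, while C1qa and C1qc did not pass the test. C3ar1 had 5.50, 6.67 and 7.59 in the 9 WT CCl4 livers, against 4.21, 4.59 and 5.10 in the 8 WT oil livers, and rose by 2.01 ± 0.34 (SE, limma, adjusted p = 6.74e-05), or 4.02-fold. C5ar1 had 4.41, 4.92 and 5.99 in WT CCl4 livers, against 3.16, 3.58 and 3.98 in WT oil livers, and rose by 1.38 ± 0.29 (adjusted p = 0.000766). For both receptors the lowest CCl4 liver was above the highest oil liver.

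C1qb had 8.55, 8.91 and 9.51 in WT CCl4 livers, against 7.70, 8.22 and 8.35 in WT oil livers. These groups did not overlap either, and C1qb rose by 0.795 ± 0.23 (adjusted p = 0.0102). C1qa had 7.28, 7.85 and 8.31 in WT CCl4 livers, against 6.87, 7.29 and 7.57 in WT oil livers, a difference of 0.57 ± 0.23 (adjusted p = 0.0628), and 8 of 9 CCl4 livers were above the highest oil liver. C1qc had 5.85, 6.26 and 6.53 in WT CCl4 livers, against 5.45, 5.81 and 6.06 in WT oil livers, a difference of 0.43 ± 0.17 (adjusted p = 0.0588), with 7 of 9 above. The lowest CCl4 liver for the 3 chains and for C3ar1 was WT CCl4 replicate 1, the WT library without a WT level of Dpt.

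In WT livers 3 of 5 genes were called, against 24.5% of all genes (13.2% higher), and 3 of 5 had groups that did not overlap, against 2.79% of all genes. Without the 2 libraries that go against their Dpt label, all 5 were called (C1qa 0.64 ± 0.18, adjusted p = 0.00783; C1qc 0.48 ± 0.15, adjusted p = 0.0136) and 28.4% of all genes were. For 4 of 5 members, all but C1qc, the groups then did not overlap, against 5.42% of all genes. The calls of C1qa and C1qc also appeared when only WT CCl4 replicate 1, KO oil replicate 10 or KO CCl4 replicate 9 was left out, and that of C1qc when KO CCl4 replicate 3 or 5 was. The KO libraries act on a WT comparison only through the shared estimate of the spread. The call of C1qb was lost without the 6 libraries that express Y-linked genes (difference 0.705, adjusted p = 0.0808) and without all 14 libraries that stand apart (0.725, adjusted p = 0.0566).

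**Figure D2:**
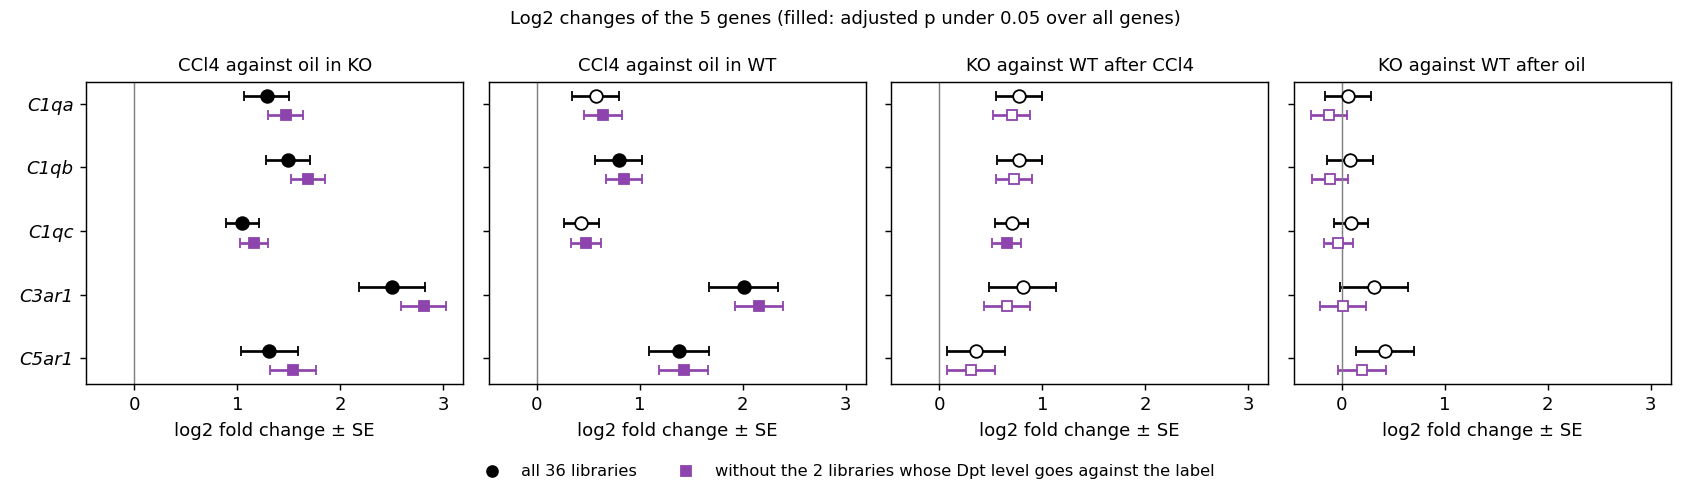
Log2 fold change with its standard error (horizontal axis) of the 5 genes in 4 comparisons, for all 36 libraries (circles) and without the 2 libraries whose Dpt level goes against the label (squares). Filled symbols have an adjusted p under 0.05 over all genes; for C3ar1 the circle stands at 2.50 in KO and 2.01 in WT livers.

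After CCl4, the 3 C1q chains and C3ar1 averaged higher in KO than in WT livers, by 0.70 to 0.81 log2 units, but none of the 5 genes passed the test over all genes. C1qc averaged 6.92 ± 0.47 in KO CCl4 livers and 6.22 ± 0.22 in WT CCl4 livers (SD, n = 9 each). Its difference of 0.70 ± 0.16 (SE) came nearest (limma, p = 0.000134 unadjusted, adjusted p = 0.0853), and all 9 KO livers were above the WT mean, 7 of them above the highest WT liver. C1qa averaged 8.61 ± 0.65 in KO CCl4 livers and 7.84 ± 0.28 in WT CCl4 livers (SD, n = 9 each). The difference was 0.77 ± 0.22 (SE, p = 0.00131, adjusted p = 0.212). KO CCl4 livers spread more widely than WT CCl4 livers for each chain, and the lowest KO liver lay inside the WT range.

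C1qb averaged 9.72 ± 0.61 in KO CCl4 livers and 8.95 ± 0.28 in WT CCl4 livers (SD, n = 9 each). The difference was 0.775 ± 0.22 (SE, p = 0.00119, adjusted p = 0.209). For C1qa and C1qb, 6 of 9 KO livers were above the highest WT liver. C3ar1 averaged 7.49 ± 0.79 in KO CCl4 livers and 6.68 ± 0.55 in WT CCl4 livers, with 3 of 9 KO livers above the highest WT liver. The difference was 0.81 ± 0.33 (SE, p = 0.0182, adjusted p = 0.444). C5ar1 averaged 5.33 ± 0.74 in KO CCl4 livers and 4.98 ± 0.49 in WT CCl4 livers, a difference of 0.355 ± 0.28 with a 95% interval from -0.21 to 0.92 (p = 0.212, adjusted p = 0.798). Without KO CCl4 replicate 5 that difference was 0.152.

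Of all genes, 0.0518% (12) were called between genotypes after CCl4 and 8.43% (1951) had an unadjusted p under 0.05. Among the 5 members 0 were called and 4 had such a p. Groups that did not overlap with KO higher were found for 0.013% of all genes and for 0 members. Without the 2 libraries that go against their Dpt label, C1qc was called (0.655 ± 0.14, adjusted p = 0.0409), beside 0.16% of all genes, and the differences of C1qa and C1qb were 0.70 and 0.73 (adjusted p = 0.086 and 0.0687). Which members pass depended on single libraries. Without KO oil replicate 10 all 3 chains were called (limma, adjusted p = 0.0327 for C1qa, 0.0268 for C1qb and 0.0143 for C1qc), out of 100 genes called. That library is in neither CCl4 group. It acts here only through the shared estimate of the spread, and the differences did not change. Without KO CCl4 replicate 9 C1qb and C1qc were called (limma, adjusted p = 0.0398 and 0.0229), out of 86 genes called. Without KO CCl4 replicate 8 C1qc was called (limma, adjusted p = 0.0391), out of 32 genes called.

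After oil, none of the 5 genes was called between KO and WT livers. C1qa averaged 7.33 ± 0.60 in KO oil livers (SD, n = 10) and 7.27 ± 0.23 in WT oil livers (SD, n = 8), a difference of 0.06 with a 95% interval from -0.39 to 0.51. C1qb and C1qc differed by 0.08 and 0.09. C3ar1 averaged 4.98 ± 0.98 in KO oil livers and 4.67 ± 0.34 in WT oil livers, a difference of 0.31 ± 0.33 (SE). C5ar1 averaged 4.02 ± 0.78 in KO oil livers and 3.60 ± 0.28 in WT oil livers, a difference of 0.42 ± 0.28 (SE). For C5ar1, 4 of 10 KO oil livers were above the highest WT oil liver. Each of the 5 differences had an adjusted p of 1 in limma. Of the members 0 were called and 0 had an unadjusted p under 0.05, against 0.0346% of all genes called and 3.79% with such a p. Without the 2 libraries that go against their Dpt label the differences were -0.12, -0.12, -0.03, 0.01 and 0.19 for C1qa, C1qb, C1qc, C3ar1 and C5ar1, so the sign of the chains' differences rested on KO oil replicate 10.

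Group means fell in the order KO CCl4, WT CCl4, KO oil and WT oil for each of the 5 genes. Between the KO and WT oil groups, which neighbour each other in that order, no member was called. Whether the CCl4 effect itself differed between genotypes was tested as an interaction, the effect in KO minus that in WT. It was 0.71 ± 0.31 for C1qa (SE, limma, p = 0.0294, adjusted p = 0.851), 0.70 ± 0.31 for C1qb (p = 0.0315, adjusted p = 0.853) and 0.615 ± 0.23 for C1qc (p = 0.0121, adjusted p = 0.848). For C3ar1 it was 0.49 ± 0.46 (adjusted p = 0.939), but 0.261 without KO CCl4 replicate 5 and 0.80 without KO oil replicate 10. For C5ar1 it was -0.07 ± 0.40, with a 95% interval from -0.87 to 0.74 (adjusted p = 0.995). The sign for C5ar1 turned without KO oil replicate 10 (0.162), WT CCl4 replicate 3 (0.059), KO CCl4 replicate 4 (0.048) or KO CCl4 replicate 9 (0.014). Of all genes, 0 (0%) were called in the interaction and 5.86% (1356) had an unadjusted p under 0.05, as did 3 of the 5 members.

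The 21 probe sets of the 5 genes gave the level of detail below the gene. In KO livers all 21 were higher after CCl4 than after oil and 17 passed limma's test over all 269479 probe sets, of which 11% did. In WT livers 20 were higher and 8 passed, against 10.2% of all probe sets. Without the 2 libraries that go against their Dpt label 15 passed. The share of all probe sets in that fit is not given here. Over all genes, 28.4% were called in it, against 24.5% with all libraries. Between KO and WT CCl4 livers all 21 were higher in KO and 0 passed, against 0.0134% of all. Probe sets of 1 gene read the same RNA and are not replicates.

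The 4 probe sets of C1qa differed little in their CCl4 rise in KO livers (1.17 to 1.43), as did those of C1qb (1.37 to 1.60) and the 3 of C3ar1 (2.21 to 2.78). C1qc had 4 probe sets that rose by 1.19 to 1.68 and 2 dim ones that stayed between 3.07 and 3.69 in every group mean, with differences of 0.10 and 0.26. The dim ones lowered the gene mean of C1qc, whose median probe set rose by 1.44 in KO livers. Its 4 brighter probe sets overlapped those of C1qb in their rise. C5ar1 was uneven: its brightest probe set averaged 8.47 in KO CCl4, 7.58 in WT CCl4, 5.28 in KO oil and 4.79 in WT oil livers, and its other 3 stayed under 4.70. That probe set rose by 3.18 ± 0.45 in KO livers (SE, adjusted p over all probe sets 1.02e-05) and by 2.79 ± 0.48 in WT livers. The gene mean of C5ar1 thus gave a smaller log2 change than its brightest probe set, and the median probe set gave 0.75 in KO and 0.86 in WT livers. By the brightest probe set C5ar1 rose more than C3ar1 in KO livers (3.18 against 2.78), so the order of these genes depended on the summary.

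**Figure D3:**
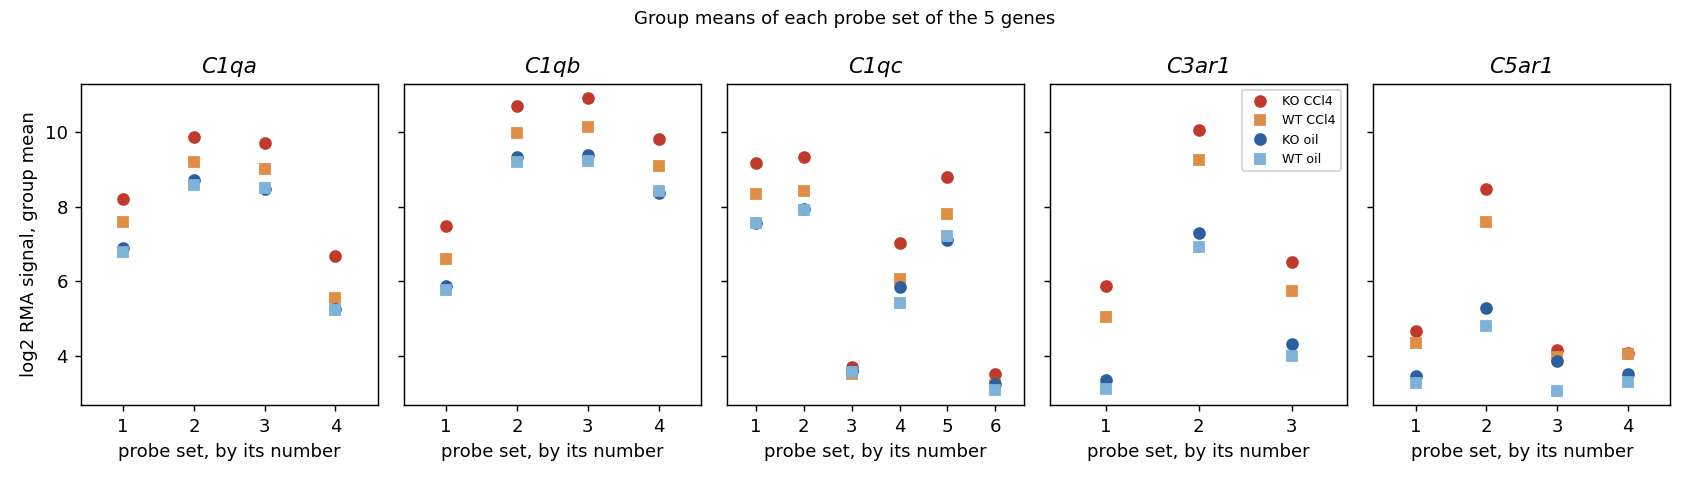
Mean log2 RMA signal of each group (vertical axis) for every probe set of the 5 genes, numbered along the horizontal axis in the order of the array's own numbers. The second probe set of C5ar1 stands apart from the other 3, at 8.47 in KO CCl4 and 4.79 in WT oil livers.

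Macrophage markers moved with the 5 genes. Of 10 markers shared by macrophages, 10 rose in KO livers after CCl4 (median 1.35) and 7 rose in WT livers (median 0.72), and between KO and WT CCl4 livers 0 were called (median 0.69). Cd68, a lysosomal protein of macrophages, rose by 2.48 in KO and 1.87 in WT livers (limma, adjusted p = 3.62e-07 and 9.02e-05), and Adgre1, a surface marker of mouse macrophages, rose by 1.33 in KO and 0.69 in WT livers (adjusted p = 2.31e-05 and 0.0265). The mean of the 10 markers ran from 7.07 to 8.65 in KO CCl4 livers, 6.85 to 7.63 in WT CCl4 livers, 6.10 to 8.02 in KO oil livers and 6.04 to 6.52 in WT oil livers. KO oil replicate 10 had the 8.02 and WT CCl4 replicate 1 the 6.85, the same libraries that stood at the edge of their groups for C1q. The part of macrophage number in the results was not tested.

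Markers of macrophage subsets did not move as 1 block. Of 8 markers of Kupffer cells, 3 rose in KO livers (Cd5l, Marco and Folr2), whereas in WT livers Marco rose and Clec4f, a lectin restricted to Kupffer cells in mice, fell by 1.03 (adjusted p = 0.0428). In KO livers Clec4f was not called but averaged lower too, at 7.17 after CCl4 and 7.79 after oil, with 4.09 in KO CCl4 replicate 5. In WT livers Clec4f lay at 4.04 in CCl4 replicate 3, which is low in hepatocyte genes. The fall was 0.68 without that library and 0.39 without the 7 libraries with markers of other tissue (adjusted p = 0.0379), and its call was lost in 12 of 36 fits that left out 1 library. Timd4, a marker of resident Kupffer cells, differed by -0.295 in KO and -0.26 in WT livers (adjusted p = 0.363 and 0.425). All 8 markers of monocytes and scar-associated macrophages rose in both genotypes, with medians of 1.92 in KO and 1.60 in WT livers. Among them Ccr2, the receptor that draws monocytes from the marrow, rose by 1.76 in KO and 1.33 in WT livers (adjusted p = 9.55e-08 and 2.81e-05).

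Neutrophils also carry C5ar1 and C3ar1. Of 8 neutrophil markers 7 rose in KO and 5 in WT livers, and their mean ran from 3.94 to 5.90 in KO CCl4, 3.67 to 4.31 in WT CCl4, 3.31 to 4.63 in KO oil and 3.27 to 3.61 in WT oil livers. Of 6 dendritic cell markers and 5 mast cell markers 0 were called in either genotype, although the mean of the mast cell markers reached 5.59 in KO CCl4 replicate 5, 5.92 in WT CCl4 replicate 3 and 4.99 in KO oil replicate 10, beside group medians of 3.25 to 3.42. Of 7 markers of stellate cells and myofibroblasts 5 rose in each genotype (medians of 1.93 in KO and 2.13 in WT livers), and of 5 markers of B and plasma cells 1 rose in KO and 3 in WT livers. The share of the receptors' rise that comes from neutrophils was not tested.

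Within KO CCl4 livers, those with more macrophage marker RNA had more C1q RNA, and so did WT CCl4 livers for C1qa and C1qb. The relation was less firm for C1qc in WT CCl4 livers and for the chains in oil livers. Each gene was set against the mean of the 10 macrophage markers in each of the 4 groups, 20 relations in all, with permutation tests (exact for groups under 10) adjusted over the 20. In KO CCl4 livers Pearson's r was 0.94 for C1qa, 0.97 for C1qb and 0.96 for C1qc, and Spearman's rho was 0.98, 0.97 and 0.98 (exact permutation, adjusted p of r = 0.000634, 0.000413 and 0.000634; of rho = 0.000248, 0.000661 and 0.000248). Without the 2 livers farthest from the median score, r was 0.97, 0.98 and 0.98. All 12 relations of C1q had an adjusted p of r of 0.0498 or less, and 8 of 12 had an adjusted p of rho under 0.05. In WT oil livers the relation of C1qb rested on the 2 livers farthest from the median, since r was 0.78 with all 8 and -0.12 without them. There the adjusted p of rho was 0.096, 0.27 and 0.107 for C1qa, C1qb and C1qc (exact permutation). In WT CCl4 livers r was 0.95 for C1qa and 0.99 for C1qb (exact permutation, adjusted p = 0.00161 and 0.00011), with a rho of 0.98 each. Without 2 livers r was 0.85 and 0.96. C1qc had an r of 0.83 and a rho of 0.57 there (exact permutation, adjusted p of rho = 0.161). In KO oil livers r was 0.97 for C1qa with all 10 livers and 0.60 without 2. Replicate 10 had a marker mean of 8.02 there, against at most 6.49 in the other KO oil livers.

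For the receptors, 5 of 8 relations had an adjusted p of r under 0.05, and 2 of 8 an adjusted p of rho. In KO CCl4 livers r was 0.81 for C3ar1 (exact permutation, adjusted p = 0.00832) and 0.54 without the 2 livers farthest from the median. There C5ar1 gave an r of 0.68 (exact permutation, adjusted p = 0.0498), a rho of 0.35 (adjusted p = 0.377) and an r of 0.18 without those 2 livers, on which it therefore rested. In WT CCl4 livers r was 0.90 for C3ar1 (exact permutation, adjusted p = 0.00832) and 0.61 without 2 livers. There C5ar1 gave 0.53 (exact permutation, adjusted p = 0.159) and -0.44 without 2 livers. In KO oil livers r was 0.98 for C3ar1 and 0.94 for C5ar1 with all 10 livers (permutation test, adjusted p = 0.0154 for each), beside 0.93 to 0.98 for C1q there. Without 2 livers they were 0.29 and 0.45, so both relations rested on those 2. In WT oil livers neither receptor passed (r of 0.38 and 0.36). The markers and the members were read on the same arrays, and no test compared the coefficients of C1q with those of the receptors.

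**Figure D4:**
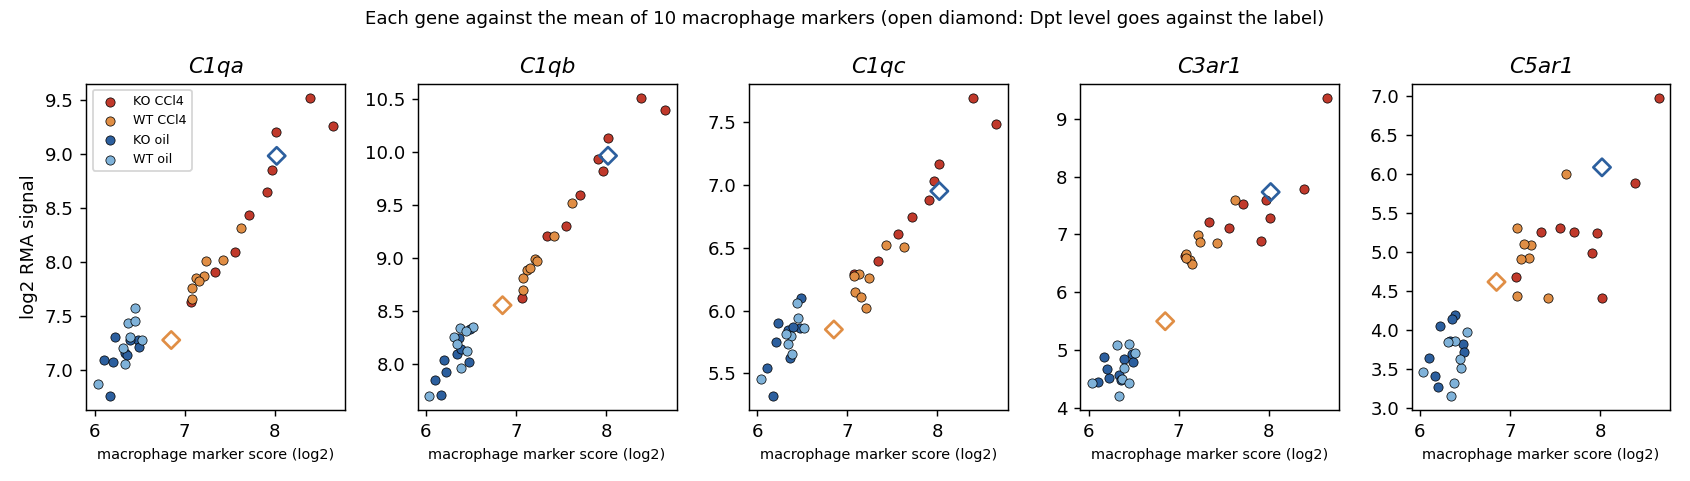
Log2 RMA signal of each gene (vertical axis) against the mean log2 signal of 10 macrophage markers (horizontal axis), 1 point per library, coloured by group; open diamonds are the 2 libraries whose Dpt level goes against the label. Points of the C1q chains lie near a line within KO CCl4 livers (r of 0.94 to 0.97), and r is 0.68 for C5ar1 there.

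The 3 chains varied together from liver to liver once the group means were taken out. Over all 36 arrays the residual Pearson correlation was 0.95 between C1qa and C1qb, 0.941 between C1qa and C1qc and 0.921 between C1qb and C1qc, against 0.839 between C3ar1 and C5ar1 and 0.635 to 0.797 between a chain and a receptor. Without the 2 libraries that go against their Dpt label, these were 0.914, 0.909, 0.881 and 0.742, and 0.428 to 0.603. They are descriptions, since values of 1 array share its RNA.

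By the same measure, the genes most like C1qa over the 36 arrays were C1qb, C1qc, Fcer1g (0.916), Fermt3 (0.911) and Sirpa (0.909). Those most like C1qb were C1qa, Fermt3 (0.943), Axl (0.931), Ly86 (0.928) and Sirpa (0.923), and those most like C1qc were C1qa, C1qb, Csf1r (0.90), Tyrobp (0.896) and Adgre1 (0.894). Csf1r encodes the receptor for macrophage colony-stimulating factor, Fcer1g and Tyrobp encode signalling adaptors of myeloid receptors, and Axl encodes a receptor for dying cells. C3ar1 was most like Myof (0.942), Sparcl1 (0.937), Gab2 (0.931), Ano6 (0.927) and Soat1 (0.924). C5ar1 was most like Bst1 (0.892), Dpep2 (0.87), Tmem165 (0.868), Ace (0.867) and Rhoj (0.858). Without the 2 libraries that go against their Dpt label, all 5 genes stayed on the list of C1qc, 3 on that of C1qb (C1qa, Fermt3 and Ly86), 2 on that of C1qa (C1qb and C1qc), 3 on that of C5ar1 (Ace, Bst1 and Tmem165) and 2 on that of C3ar1 (Gab2 and Myof). The genes that entered were Pld4 (0.905), Csf1r (0.878) and Clec4a1 (0.864) for C1qa, Csf1r (0.915) and Pld4 (0.909) for C1qb, Stxbp5 (0.893), Arglu1 (0.872) and Dennd4c (0.862) for C3ar1, and Pld2 (0.825) and Ampd3 (0.82) for C5ar1. No gene was among the 5 most like both a chain and a receptor in either set of arrays. Both sets kept KO CCl4 replicate 5, the highest library for C3ar1 and C5ar1. Its part in the receptors' lists and in their correlation with each other was not tested.

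Some other complement genes rose after CCl4, some fell, and most were not called. Of 42 other complement genes measured, 8 rose and 5 fell in KO livers after CCl4 (median -0.17) and 9 rose and 12 fell in WT livers (median -0.46), beside medians of -0.04 and -0.043 over all genes. Of all genes, 13.4% rose and 9.89% fell in KO livers, and 13.2% rose and 11.3% fell in WT livers. The receptors and binding proteins held most of the rises. Of 10 such genes, 5 rose in KO livers and 6 in WT livers. Itgam and Itgb2, which encode complement receptor 3, rose by 3.03 and 2.24 in KO livers and by 2.58 and 1.70 in WT livers (limma, adjusted p = 3.77e-06 and 2.19e-06 in KO, 0.000141 and 0.000317 in WT). Itgax, whose product joins that of Itgb2 in complement receptor 4, rose by 2.94 in KO and 1.77 in WT livers (adjusted p = 4.12e-08 and 8.66e-05). Cd93, a membrane protein first described as a C1q receptor, rose by 0.99 in KO and 0.995 in WT livers. Calr, which encodes calreticulin, a chaperone that also binds C1q, rose by 0.52 in KO and 0.37 in WT livers (adjusted p = 0.00193 and 0.0368). C5ar2, the second C5a receptor, differed by 0.225 in KO livers (adjusted p = 0.146) and rose by 0.37 in WT livers (adjusted p = 0.0193).

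Itgax was also the 1 complement gene called between genotypes after CCl4. It averaged 6.62 in KO CCl4 livers and 5.17 in WT CCl4 livers, a difference of 1.45 ± 0.29 (SE, limma, adjusted p = 0.0415), and 8 of 9 KO livers were above the highest WT liver. The call was lost in 22 of 36 fits that left out 1 library.

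None of the 12 genes that start the classical and lectin pathways rose in either genotype. C1ra, the protease that C1q activates first, fell by 0.57 in KO livers and by 0.51 in WT livers (limma, adjusted p = 0.000846 and 0.00482). C1s1, the next protease of that complex, differed by -0.19 in KO livers and fell by 0.55 in WT livers (adjusted p = 0.0128 in WT). C2 and C4b, which C1s cleaves, fell by 0.64 and 0.57 in WT livers (adjusted p = 0.00208 and 0.00381). The collectin genes Colec10 and Colec11 fell by 1.04 and 0.69 in KO livers (adjusted p = 0.0353 and 0.0339).

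Among the 5 genes of C3, C5 and the alternative pathway, C3 and Cfp (properdin, which leukocytes secrete) rose by 0.17 and 0.75 in KO livers (limma, adjusted p = 0.00962 and 0.00216), and Cfb (factor B) fell by 0.545 in WT livers (adjusted p = 0.0481). Hc, which encodes C5, differed by -0.86 in KO and -0.98 in WT livers (adjusted p = 0.216 and 0.169). Of 6 genes of the membrane attack complex, C7 rose by 0.86 in KO and 1.65 in WT livers (adjusted p = 0.0499 and 0.000733), and C8g fell by 1.025 in KO and 1.23 in WT livers (adjusted p = 0.0376 and 0.0183). C6 and C8b also fell in WT livers, by 1.41 and 1.59 (adjusted p = 0.0272 and 0.0242). In WT oil livers that express Y-linked genes C6 lay at 9.05 to 9.39, against 6.02 to 6.44 in the other WT oil livers and 5.61 to 6.79 in WT CCl4 livers. C8b lay at 10.41 to 10.46 in them, against 9.09 to 9.47 in the other WT oil livers. For C8g these 2 ranges overlapped (8.80 to 8.98 and 8.59 to 8.91). Without WT CCl4 replicate 3 C8b differed by -1.14 and its call was lost. Without the 6 libraries that express Y-linked genes, C6 differed by -0.30 and C8b by -1.16 in WT livers (limma, adjusted p = 0.345 and 0.198). The mean of the 6 terminal genes was 8.73 to 9.16 in those 6 oil livers and 7.43 to 8.09 in the other 12, and it had a median of 7.77 in KO CCl4 and 7.70 in WT CCl4 livers. Of 9 regulators, Cd59a fell by 0.56 in KO livers (adjusted p = 0.0306). In WT livers Cd55, which speeds the decay of convertases, rose by 0.63 and Serping1, the C1 inhibitor, fell by 0.35 (adjusted p = 0.0254 and 0.00954).

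The counts of falls changed with the libraries left out, as did those over all genes. Without the 6 libraries that express Y-linked genes, 1 other complement gene fell in KO livers (C1ra) and 3 fell in WT livers (C1ra, C2 and Fcna, a ficolin gene). Over all genes, 1435 then fell in KO and 1462 in WT livers, against 2289 and 2618 with all libraries. In KO livers, 8 other complement genes fell without KO oil replicate 10, 9 without WT CCl4 replicate 3 and 1 without KO CCl4 replicate 5, where hepatocyte genes were low. It was 2 without KO oil replicate 5, 6 or 8 and 3 without KO oil replicate 3, 4 or 9 or KO CCl4 replicate 3. Over all genes, 2960 fell in KO livers without KO oil replicate 10, 2774 without WT CCl4 replicate 3 and 1902 without KO CCl4 replicate 5. In WT livers between 8 and 18 fell when 1 library was left out, the fewest without WT CCl4 replicate 3 and the most without KO CCl4 replicate 5. In those 2 fits 2020 and 2968 of all genes fell. Periportal hepatocyte genes averaged 5.87 to 8.95 in KO CCl4 livers and 5.93 to 9.27 in WT CCl4 livers, against 8.45 to 9.62 in KO oil and 8.99 to 9.62 in WT oil livers. Of 9 such genes 5 fell in each genotype. The part of these genes and of the Y-expressing libraries in the falls was not tested. Among single calls, those of C7 in KO livers and Cfb in WT livers were each lost in 28 of 36 fits that left out 1 library.

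**Figure D5:**
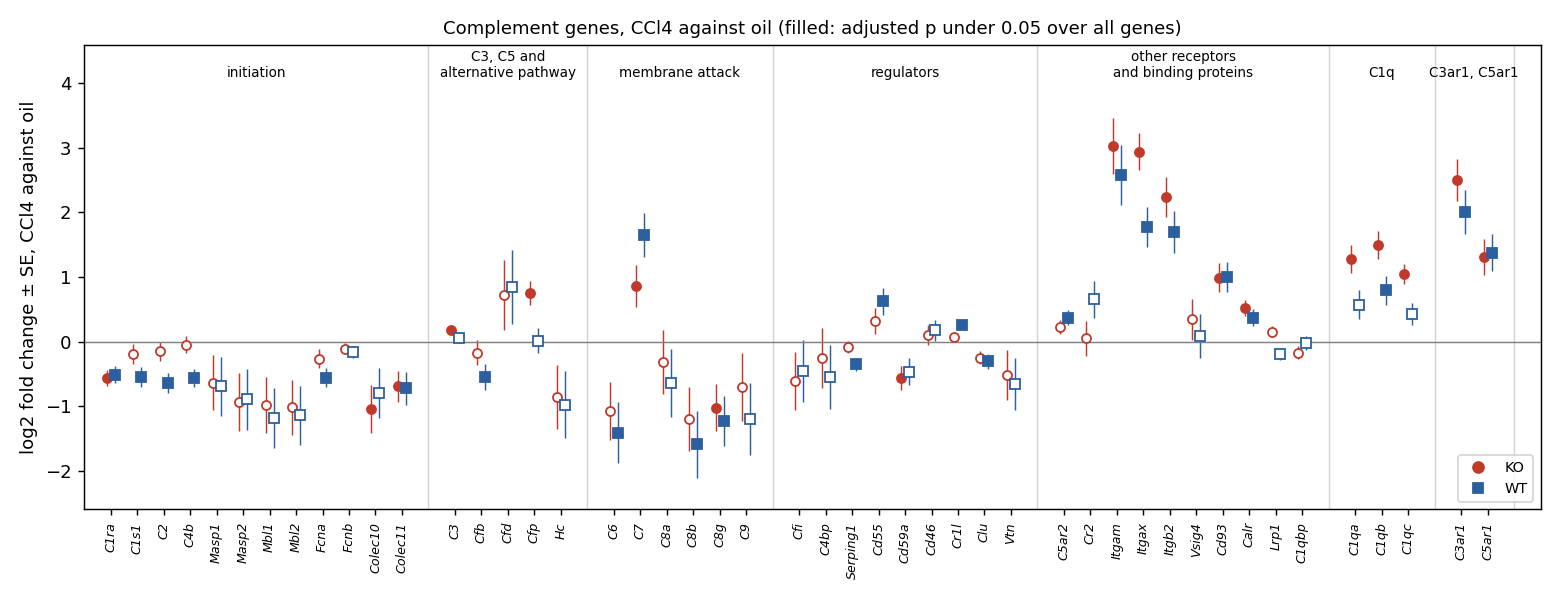
Log2 fold change of CCl4 against oil with its standard error (vertical axis) for 42 other complement genes and the 5 members, by role, in KO (circles) and WT livers (squares). Filled symbols have an adjusted p under 0.05 over all genes; the 5 members stand above 0, and the initiating genes stand below it (-0.05 to -1.04 in KO livers).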

How the data were processed

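Whole-liver RNA of 36 mice was hybridised to Affymetrix MoGene-2_0-st arrays, 1 per library. The authors deposited log2 signals per probe set after RMA, per the submitters' processing notes. The version of RMA, the probe set definition and the array's genome build were not given in the sources used here. A further deposited table was left out, since none of its 36 column names could be tied to a sample. Groups follow the labels alone.

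Of 269479 probe sets, 233753 name 1 symbol in the platform annotation and were kept; 5139 name several and 30587 none. A gene's value is the mean of its probe sets, which gave 23152 genes (2189 symbols updated by RefSeq names). No filter was applied, and array medians ran from 4.11 to 4.38. No 2 arrays were identical (0 pairs; highest correlation 0.9888). Precision depends on the number of arrays, which carry no read depth. With limma 3.58.1 (R 4.3.3), a fit of 4 group means shared the spread of every array, and its scripts were tested on simulated data. Rise, fall and call refer to a two-sided Benjamini-Hochberg adjusted p under 0.05 over all genes of a comparison. Permutation tests used Python 3.11.15, exact under 10 livers and 100000 draws at 10. Promoter windows came from RefSeq (GRCm38.p6), which listed 4 of the 5 members (all but C1qa).

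Genes named are the members, Dpt, up to 4 called genes of each complement list by size (or 2 with the smallest adjusted p), the 5 genes most like each member, and defining cell markers; Cd5l, Marco, Folr2, Hc, Calr, Fcna and the partners without a call named beside a called gene were added after their values were seen. The members, lists and alternatives were chosen with earlier results of these data known.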

Additional observations from a re-analysis of the deposited data

Results flagged for a closer look

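In 6 of the 20 combinations of gene and group, 1 library stood apart from the others of its group by a gap larger than Dixon's limit; chance flags about 1 in 20 groups. KO oil replicate 10 did so for all 5 genes, with 8.98 for C1qa, 9.96 for C1qb, 6.95 for C1qc, 7.74 for C3ar1 and 6.08 for C5ar1. The highest of the other 9 KO oil livers had 7.31 for C1qa and 8.33 for C1qb. In the same library Dpt was 7.40, the mean of the macrophage markers 8.02, that of the monocyte and scar macrophage markers 6.85 and that of the muscle markers 6.43. KO CCl4 replicate 5 stood apart for C3ar1, with 9.36. In that library the mean of the fat cell markers was 9.28, that of the periportal genes 5.87 and that of the macrophage markers 8.65, the highest of all libraries. The part of these markers in the values was not tested.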

How the results depend on the processing

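In KO livers the 5 members were called under every alternative that measured them, replicate block included. The filter on genes above log2 5 leaves C5ar1 out. With it 3508 of 8490 genes were called in KO livers, and under the other alternatives 3785 to 7825 of 23152, against 5389 in all. In WT livers 3 were called in all, 4 with genes above log2 5 only (all those measured) and with the median probe set. It was 2 without Y-expressing or without all 14 libraries. It was 5 with array quality weights, with only the groups compared, with the replicate block and without the 2 libraries that go against their Dpt label. Leaving out 1 library gave 3 to 5. All genes called in WT livers numbered 5666, against 3344 of 8490 above log2 5 and 4115 with the median probe set. They numbered 3403 without Y-expressing and 3714 without all 14 libraries. They numbered 6505 with weights, 5107 with the groups compared, 5820 with the block, 6578 without the 2 libraries and 4755 to 6378 without 1. Between genotypes after CCl4, 0 were called in all, 3 with array weights, 4 with the replicate block (adjusted p = 0.0196, 0.015, 0.0122 and 0.0494 for C1qa, C1qb, C1qc and C3ar1), 1 without the 2 libraries, 1 (C3ar1, 0.86, adjusted p = 0.0484) without the 7 with markers of other tissue, and 0 to 3 when 1 library was left out. No label says what the replicate numbers mark. Of 51 same-numbered pairs 14 correlated above 0.1 (median r 0.012), and 4 of 36 libraries correlated best with their own number. These values cannot tell whether same-numbered livers were paired or handled together. All genes called in that comparison numbered 12, against 268 with array weights, 133 with the block, 103 without other tissue, 37 without the 2 libraries, 36 without the 10 libraries against their labels or low in hepatocyte genes, 21 with each array centred on its median, 7 with the brightest or the median probe set, 6 without Y-expressing or without all 14 libraries and 3 with only the groups compared. With 1 library left out they numbered 3 to 100. Centring left 34.7% of calls higher in KO and 30.5% in WT livers, against 57.5% and 53.8%. It moved the median gene to -0.126 and -0.134, and members kept their direction.

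Between groups, signs of members turned only for differences with an adjusted p of 0.89 or more. For KO against WT after oil, C1qa, C1qb and C1qc gave -0.124, -0.116 and -0.033 without the 2 libraries, without other tissue or without KO oil replicate 10. They gave -0.248, -0.193 and -0.169 without the 10 or all 14 libraries, -0.075, -0.068 and -0.004 with the replicate block, and -0.05 (C1qa) and -0.017 (C1qb) with array weights; the highest values with 1 library left out were 0.122, 0.134 and 0.148. The interaction of C5ar1 was 0.397 with the brightest probe set, 0.127 with the block, 0.117 without the 2 libraries, 0.123 without other tissue, 0.011 without the 10 and 0.018 without all 14, and 0.162, 0.059, 0.048 and 0.014 without KO oil replicate 10, WT CCl4 replicate 3, KO CCl4 replicate 4 or KO CCl4 replicate 9 (lowest with 1 left out, -0.271). Within groups, r with the macrophage score turned to -0.12 (C1qb, WT oil) and -0.44 (C5ar1, WT CCl4) without 2 livers. The cause was not tested. Other complement genes that fell numbered 5 in KO and 12 in WT livers, against 1 and 3 without Y-expressing libraries, 11 and 15 with array weights and 8 and 17 with centring. All genes that fell numbered 2289 and 2618, against 1435 and 1462, 3795 and 2952, and 4710 and 5380 in the same order.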
